A study of Mus musculus with 2 samples.

Results

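The 6 genes described here make, cross-link, fill or bind the hyaluronan matrix: the hyaluronan synthases Has1 and Has2, the cross-linking proteins Tnfaip6 and Ptx3, the proteoglycan Vcan and the receptor Cd44. They were taken by symbol from a table of 27998 genes, and all 6 were found. Both libraries are single-cell RNA sequencing of male C57BL/6J mice, 8 weeks of age, whose carotid artery had been injured by passing a wire along its inside, which strips the endothelium and is followed by thickening of the intima. One library was taken 14 days (2 weeks) and the other 28 days (4 weeks) after injury, and the design text gives n = 18 for each time without saying how animals were pooled. All samples were injured, and uninjured arteries were not analysed here. The labels disagree on the vessel: the source is the carotid artery, one protocol names both its left and its right side, and another speaks of aortic grafts. Per the labels' protocols the adventitia was dissected from the inner layers, the tissue was digested with papain, and live nucleated cells were sorted before 10x Genomics capture.

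Hyaluronan is a long sugar chain with no protein core, spun out through the cell membrane by synthases that draw on UDP-sugars from the cytosol. Tnfaip6 encodes TSG-6, which moves protein heavy chains from the serum factor inter-alpha-inhibitor onto hyaluronan, and Ptx3 encodes pentraxin 3, which binds those heavy chains and ties the strands together. Vcan encodes versican, a large proteoglycan that holds hyaluronan through its link modules, and CD44 is the main cell-surface receptor through which leukocytes and stromal cells grip the chain. In injured arteries this loose, swollen matrix is known from the growing neointima.

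In the mouse genome build mm10 (GENCODE M21) Has1 lies on the minus strand at chr17:17843323-17855205 and Has2 on the minus strand at chr15:56665627-56694539. Tnfaip6 lies on the plus strand at chr2:52038009-52056686, and Ptx3 on the plus strand at chr3:66219910-66225805. Vcan lies on the minus strand at chr13:89655312-89742509, and Cd44 on the minus strand at chr2:102811141-102901665. Vcan and Cd44 have 8 annotated coding transcripts each and the other members 1 each, so a count per gene does not tell versican or CD44 splice forms apart. Ptx3 overlaps Veph1 on the other strand, and whether counting used the strand is not given in the sources used here. Veph1 itself had 8 UMIs (unique molecular identifiers, counted transcripts) at 2 weeks and 2 at 4 weeks in the fibroblast-like cells that held most Ptx3. Has2 overlaps the antisense gene Has2os, which is not used here.

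The stretches upstream of Has1, Tnfaip6 and Ptx3 are shown because these genes had the lowest ratios of 4 weeks to 2 weeks of the 6 in fibroblast-like cells, the class that held nearly all of their UMIs. They come from RefSeq on GRCm38.p6, run 5′ to 3′, and reach from 250 bases before the RefSeq start to that start or to the GENCODE gene, whichever comes first. Capitals mark letters that match a motif on either strand: the AP-1 motif TGANTCA, the CRE TGACGTCA or the C/EBP motif TTNNGNAA. The Has1 stretch is chr17:17855206-17855438 on the minus strand, the Tnfaip6 stretch chr2:52037863-52038008 on the plus strand, and the Ptx3 stretch chr3:66219637-66219886 on the plus strand.
Has1: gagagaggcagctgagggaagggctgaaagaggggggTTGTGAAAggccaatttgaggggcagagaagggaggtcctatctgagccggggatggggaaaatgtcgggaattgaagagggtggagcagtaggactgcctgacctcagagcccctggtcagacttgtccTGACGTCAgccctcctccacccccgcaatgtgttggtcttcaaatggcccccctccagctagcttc
Tnfaip6: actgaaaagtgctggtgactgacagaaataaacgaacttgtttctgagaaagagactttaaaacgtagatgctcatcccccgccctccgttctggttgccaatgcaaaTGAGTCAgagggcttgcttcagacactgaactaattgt
Ptx3: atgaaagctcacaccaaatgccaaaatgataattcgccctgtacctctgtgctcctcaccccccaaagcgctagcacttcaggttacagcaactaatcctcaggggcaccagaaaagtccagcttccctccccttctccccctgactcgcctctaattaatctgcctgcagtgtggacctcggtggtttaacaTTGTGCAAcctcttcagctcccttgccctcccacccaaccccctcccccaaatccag

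In the 250 bases before the RefSeq start, Has1 held the CRE letters 83 to 76 bases before the start and a C/EBP match, TTGTGAAA, 213 to 206 bases before it. Tnfaip6 held an AP-1 match, TGAGTCA, 142 to 136 bases before its start and a C/EBP match, TTGTGTAA, at 108 to 101 bases, which runs into the GENCODE gene and is not printed. Ptx3 held a C/EBP match, TTGTGCAA, 57 to 50 bases before its start. The same windows of Vcan and Cd44 held none of these letters, and none of the 5 windows held the NF-kB motif that was also searched. Among 32851 mouse promoters of the same length, 6.75% held the AP-1 letters, 1.55% the CRE, 36.8% the C/EBP letters and 7.25% the NF-kB motif. The matches do not overlap one another and describe letters only, not bound sites.

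The 2-week library had 5864 barcodes with 78773018 UMIs and the 4-week library 8565 barcodes with 83753250 UMIs, and 8 barcode sequences occurred in both. After filtering, 5152 and 7422 cells were kept, with medians of 11775.5 and 8710 UMIs, in 29 clusters built without the 6 genes. Of these, 28 carried the markers of 16 classes, and 1 (cluster 22, shallow cells with macrophage and haemoglobin genes) stayed unnamed. The libraries held cells of tissues beside the artery: thymocyte-like cells were 32.0% and 11.2% of kept cells at 2 and 4 weeks, and parathyroid-like cells 54 and 15 cells. The 8 fibroblast markers summed to 56063 and 40560 CPM in fibroblast-like cells, against 354.1 and 479 CPM in thymocyte-like cells. Fibroblast-like cells were 23.5% and 43.5%, monocyte or macrophage-like cells 21.1% and 3.503%, B lineage-like cells 0.835% and 19.5%, and smooth muscle or mural cell-like cells 4.33% and 1.01%. With only 1 library at each time, differences between the times have no replicate check, and time cannot be told apart from library. No test was run, and every interval below is a 95% interval that covers counting error only. Levels are CPM, the gene's UMIs per 1000000 UMIs of all cells of a class in a library; since the libraries count transcript ends, they are compared between cells and times and not between genes.

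At 2 weeks fibroblast-like cells held 97.5% of all Has1 UMIs in kept cells, 98.3% of Has2, 97.9% of Tnfaip6, 98.4% of Ptx3 and 80.2% of Vcan. At 4 weeks the shares were 99.1%, 99.4%, 98.8%, 98.3% and 91.9%. The receptor was spread otherwise: fibroblast-like cells held 36.2% and 48.2% of Cd44 UMIs, and monocyte or macrophage-like cells 45.4% and 15.5%. The remaining Cd44 came mainly from neutrophil-like and dendritic cell-like cells at 2 weeks, and from dendritic and lymphoid classes at 4 weeks.

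**Figure D1:**
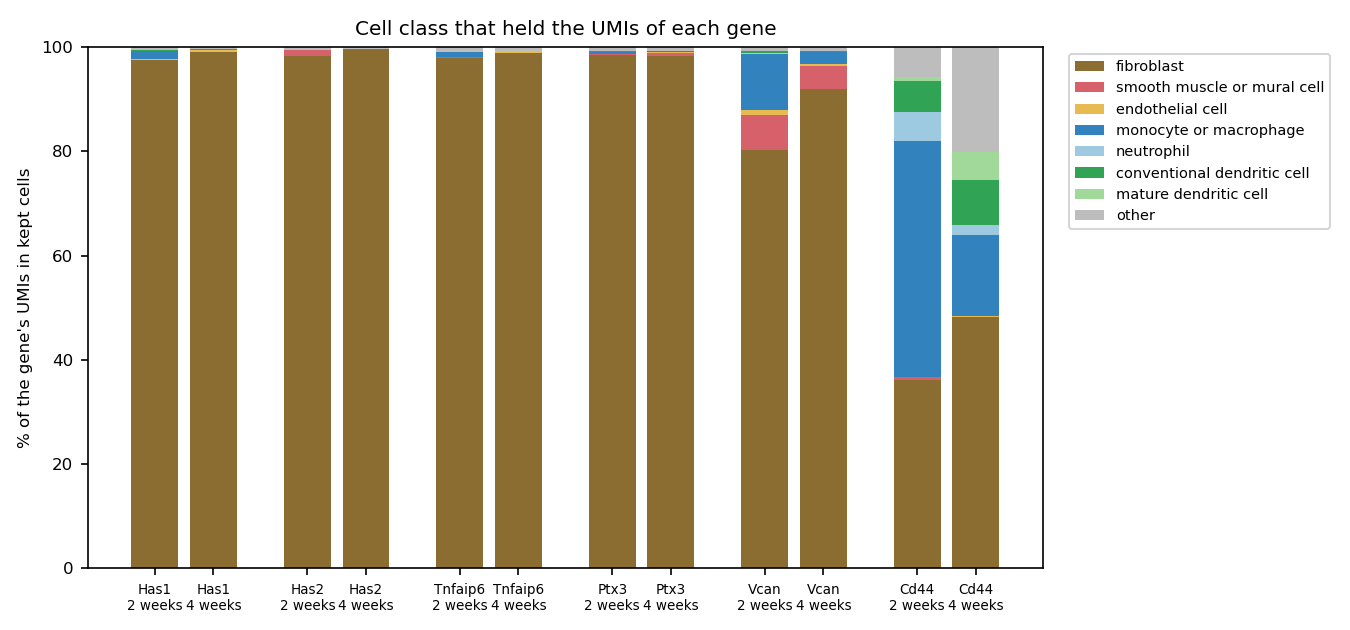
Share of each gene's UMIs in kept cells (y axis, percent) held by each cell class, with 1 bar for each gene and time. Fibroblast-like cells fill over 97% of the bars of Has1, Has2, Tnfaip6 and Ptx3, whereas the Cd44 bars are divided among stromal and immune classes.

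Classes with fewer than 20 cells at either time are left out of the orders of levels that follow. Of the synthases, Has1 in fibroblast-like cells stood at 120 CPM (116 to 124) at 2 weeks and at 24.4 CPM (22.9 to 26.0) at 4 weeks. The log2 ratio of 4 weeks to 2 weeks was -2.30 (-2.40 to -2.20), a 4.92-fold lower level. At 2 weeks the next class, interleukin-17 type lymphocyte-like cells, was at 7.70 CPM (2.10 to 19.7), and the intervals of fibroblast-like cells and that class did not overlap. At 4 weeks the next class was endothelial cell-like, at 11.7 CPM (2.41 to 34.1) from 26 cells, and that interval did overlap. Thymocyte-like cells, which should lack the gene, had 0.777 CPM at 2 weeks and 0 UMIs at 4 weeks, which allows up to 0.527 CPM.

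Has2 was at 42.5 CPM (40.0 to 45.0) and 22.3 CPM (20.9 to 23.8) in fibroblast-like cells, a log2 ratio of -0.93 (-1.06 to -0.80). No other class reached 4 CPM at 2 weeks: the next, smooth muscle or mural cell-like cells, had 3.59 CPM (1.86 to 6.28). The third synthase, Has3, had 5 and 10 UMIs in fibroblast-like cells, too few to compare.

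In the same class Tnfaip6 was at 553 CPM (544 to 562) at the earlier time and 128 CPM (125 to 132) at the later, a log2 ratio of -2.11 (-2.15 to -2.06). The next class at both times was neutrophil-like, at 21.05 CPM (11.5 to 35.3) and 38.1 CPM (14.0 to 82.9), the latter from 6 UMIs in 29 cells. Ptx3 was at 229 CPM (223 to 235) and 32.2 CPM (30.4 to 34.0), a log2 ratio of -2.83 (-2.92 to -2.75), or 7.12-fold lower at 4 weeks. No other class of at least 20 cells at each time exceeded 10 CPM of Ptx3; lymphatic endothelial cell-like cells, too few for that limit, had 32.6 CPM (14.1 to 64.2) at 2 weeks from 8 UMIs. Both cross-linkers therefore had their highest level in fibroblast-like cells at both times, with intervals that overlapped none of these classes.

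Vcan was at 286 CPM (280 to 293) and 153 CPM (149 to 157) in fibroblast-like cells, a log2 ratio of -0.90 (-0.95 to -0.85). Smooth muscle or mural cell-like cells went the other way, from 190 CPM (176 to 206) in 223 cells to 330 CPM (294 to 370) in 75 cells, a log2 ratio of 0.80 (0.59 to 1.00). In that class 8.26% of 10027 genes were higher at 4 weeks with an interval excluding 0. At 2 weeks fibroblast-like cells were thus the highest class for Vcan, and at 4 weeks mural cells were, with no overlap of intervals in either case. Endothelial cell-like cells had 193 CPM (156 to 235) in 41 cells and 109 CPM (72.3 to 157) in 26 cells.

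The level of Vcan differed between the 2 macrophage clusters. Cluster 7, led by Arg1, Saa3 and Trem2, had 127 CPM (119 to 135) at 2 weeks and 82.8 CPM (70.0 to 97.2) at 4 weeks. Cluster 5, led by Folr2 and Cd163, which mark macrophages resident in tissue, had 3.79 CPM (2.54 to 5.45) and 0.949 CPM (0.0240 to 5.29, 1 UMI). The level in cluster 7 was thus 33.4-fold (23.1 to 50.1) that in cluster 5 at 2 weeks. At 4 weeks 17.6% of the Vcan UMIs of cluster 7 lay in 1 cell.

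**Figure D2:**
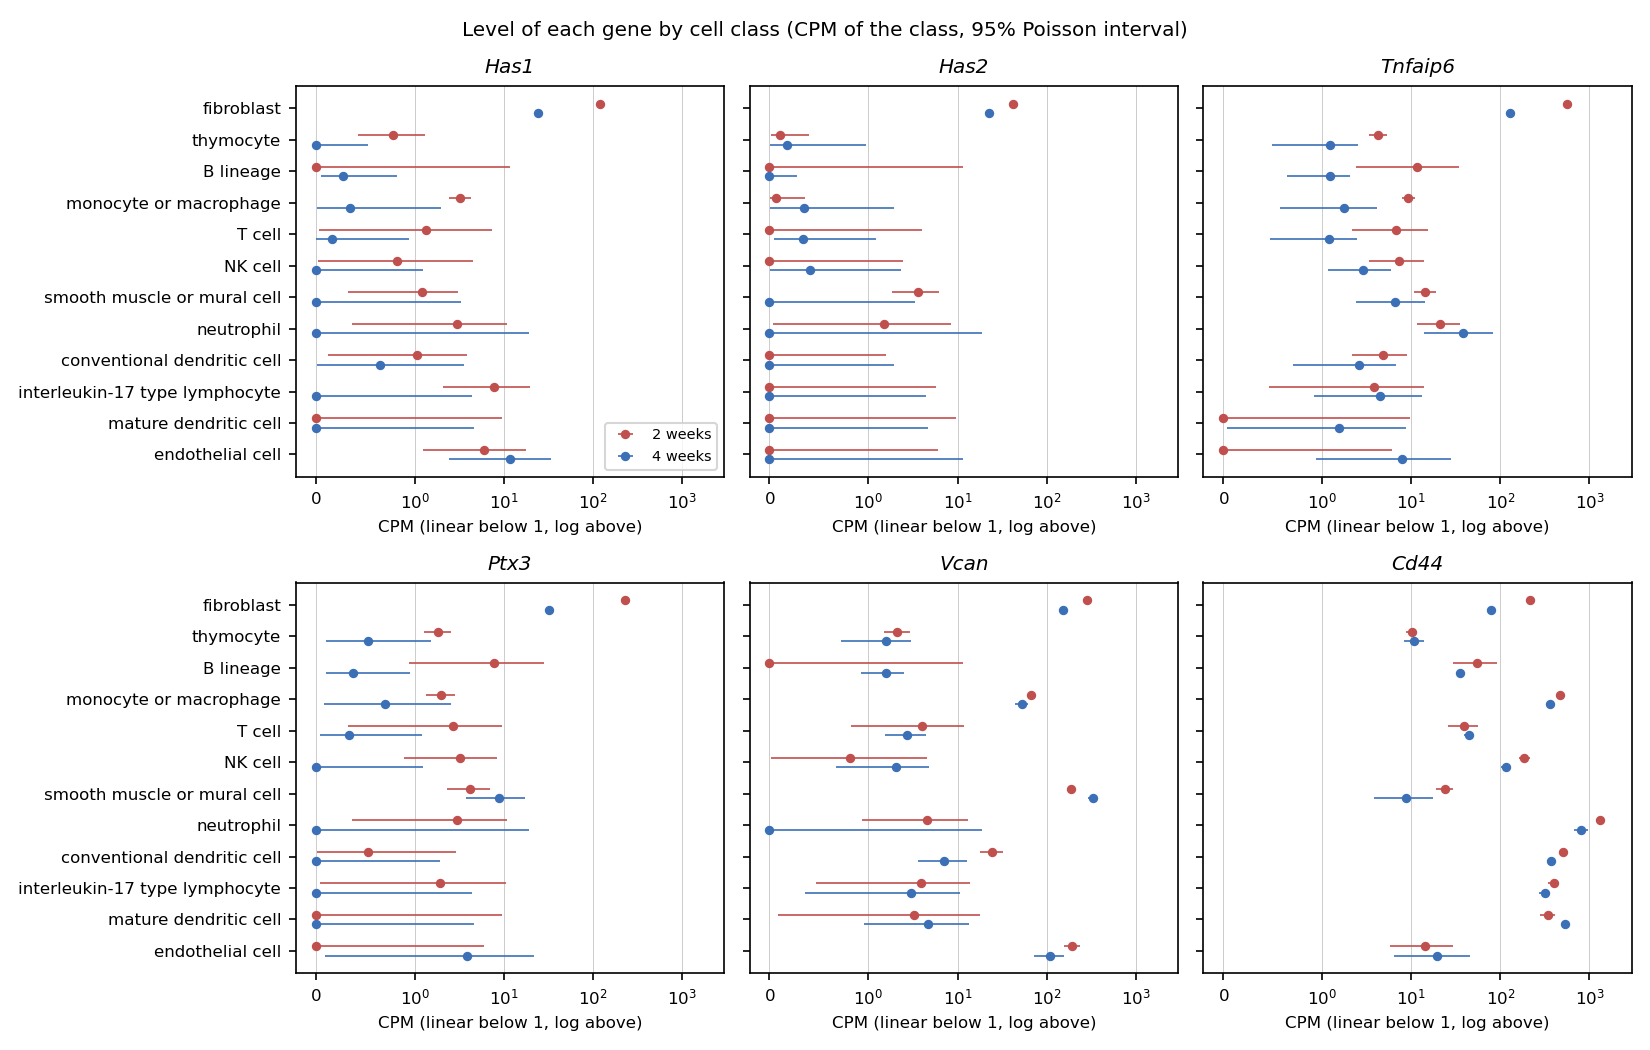
Level of each of the 6 genes (x axis, CPM, linear below 1 and logarithmic above) in the 12 named classes with at least 20 cells at each time, with 95% Poisson intervals; red is 2 weeks and blue 4 weeks. The 4 genes in the panels of Has1, Has2, Tnfaip6 and Ptx3 stand highest in fibroblast-like cells, with at most 38.1 CPM in any other class shown, Vcan is also high in mural and endothelial cells, and Cd44 is high in myeloid classes.

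Among 14053 genes measured in fibroblast-like cells, 6.08% were at least 2-fold lower at 4 weeks with an interval excluding 0, 26.6% were lower and 23.2% higher by any amount beyond their interval. The median log2 ratio of all these genes was -0.01. All 6 members were lower, and 4 of them (Has1, Tnfaip6, Ptx3 and Cd44) at least 2-fold. With the fibroblast-like clusters weighted equally the log2 ratio of Cd44 went from -1.47 to -0.23 and that of Vcan from -0.90 to -0.27, and without cluster 8, described below, they were -0.60 and -0.47, so Cd44 was then no longer 2-fold lower. Ptx3 had a lower ratio than all but 0.726% of the genes, Has1 than all but 1.22% and Tnfaip6 than all but 1.49%. For Cd44, Has2 and Vcan 3.34%, 7.07% and 7.32% of genes had lower ratios. The median log2 ratio of the 5 genes other than Cd44 was -2.11.

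Shares of cells gave the same order of times. To set depth equal, each cell was thinned to 2700 UMIs, which left 1159 of 1213 and 3068 of 3229 fibroblast-like cells. A Tnfaip6 UMI was then found in 47.3% and 20.3% of them, Has1 in 21.8% and 4.92%, Has2 in 9.23% and 5.57%, Ptx3 in 20.1% and 4.14%, Vcan in 38.1% and 24.9%, and Cd44 in 25.9% and 14.1%. Without thinning, at medians of 20641 and 12415 UMIs, the Tnfaip6 shares were 73.2% and 48.2% and the Cd44 shares 64.4% and 39.7%. In thinned thymocyte-like cells (1348 of 1647 and 487 of 828, medians of 4812 and 3007 UMIs before thinning) the shares were at most 1.34% for the 5 matrix genes at 2 weeks and at most 0.411% at 4 weeks. For Cd44, which thymocytes can express, the shares were 3.04% and 2.87%.

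Fibroblast-like cells fell into 6 clusters whose numbers differed between the libraries. Cluster 8, led by Col5a3, Cthrc1, Crabp2 and Lrrc15, genes of collagen-making activated fibroblasts, counted 439 cells, or 36.2% of the class, at 2 weeks, and 138 cells, or 4.27%, at 4 weeks. Clusters 1 (led by Pi16, Pla1a and Dact2), 3 (Cilp, Thbs4 and C7) and 4 (Cxcl13, C7 and Inmt) together held most cells at 4 weeks, with 1009, 965 and 733 cells against 208, 175 and 131 at 2 weeks. Clusters 12 (Apod, Myoc and Penk) and 16 (Fmod and Comp) had 138 and 122 cells at 2 weeks, and 279 and 105 at 4 weeks. The share of genes that were lower at 4 weeks within a cluster, with an interval excluding 0, was 11.6% in cluster 1, 13.8% in 3, 9.28% in 4, 10.5% in 8, 12.4% in 12 and 8.81% in 16.

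Within these clusters Tnfaip6 was lower at 4 weeks in 6 of 6, with log2 ratios from -2.74 in cluster 16 to -1.01 in cluster 8. Its highest level was in cluster 8 at both times, 783 CPM and 388 CPM, and cluster 8 held 70.6% of its UMIs at 2 weeks and 24.3% at 4 weeks. Ptx3 was likewise lower in 6 of 6 clusters, from -3.26 in cluster 1 (325 to 34.0 CPM) to -0.88 in cluster 8 (275 to 149 CPM). Of the Ptx3 UMIs of cluster 8 at 4 weeks, 24.3% lay in 1 cell. Has1 was lower in 5 of 6 clusters, from -3.37 in cluster 3 (79.5 to 7.68 CPM) to -0.96 in cluster 8 (140 to 71.6 CPM), and in cluster 16 its interval held 0. These 3 genes stayed nearest to their 2-week level in cluster 8 among the clusters with more than 50 of their UMIs at both times.

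Has2 took a different course. In cluster 1 it stood at 62.3 CPM (55.0 to 70.4) at 2 weeks and 46.5 CPM (42.9 to 50.2) at 4 weeks, a log2 ratio of -0.42 (-0.63 to -0.21). Cluster 1, which made up 15.7% and 34.1% of all fibroblast-like UMIs, held 22.6% of Has2 UMIs at 2 weeks and 70.5% at 4 weeks. Cluster 8, at 51.0% and 8.13% of all UMIs, held 65.9% and 12.7% of those of Has2. Has2 was lower in 4 of 6 clusters, and its interval held 0 in cluster 4 (15.3 and 13.3 CPM). In cluster 16 Has2 had only 3 and 9 UMIs, below the count needed to call a gene lower or higher. Its log2 ratio there was 2.17 (0.16 to 4.70), and no difference is called. In cluster 3 Has2 was at 15.6 CPM and 2.44 CPM, a log2 ratio of -2.67. Has1 in cluster 1, by contrast, had a log2 ratio of -2.28 (-2.46 to -2.10), so the 2 synthases differed in that cluster by more than their counting intervals.

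Vcan and Cd44 were not lower in cluster 8. Vcan was at 391 CPM (380 to 401) and 430 CPM (408 to 454) there, a log2 ratio of 0.14 (0.05 to 0.23), and Cd44 at 348 CPM (338 to 358) and 359 CPM (338 to 380), 0.04 (-0.05 to 0.14). In the other 5 clusters Vcan had log2 ratios from -1.04 to -0.12 and Cd44 from -0.92 to -0.37, each with an interval below 0. Cluster 8 had the highest Cd44 level of the 6 at both times, and the others lay between 61.6 and 102 CPM at 2 weeks and between 38.1 and 77.2 CPM at 4 weeks.

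The ratio over all fibroblast-like cells can be divided into the part that follows from cluster numbers and the part that lies within clusters; this division was added after the values were seen. Had each cluster kept its 2-week level while the clusters took their 4-week shares of UMIs, Cd44 would have been at 103 CPM, against 217 CPM measured at 2 weeks and 78.6 CPM at 4 weeks. On the log2 scale cluster make-up then gave -1.07 and levels within clusters -0.39 of the total of -1.47, and with the steps taken in the other order -1.42 and -0.05. For Vcan the make-up gave -0.61 or -0.88, and levels -0.29 or -0.02. For Has2 levels gave the larger share in both orders, -0.62 or -0.65, against -0.30 or -0.28 for make-up. For Has1 levels gave -2.21 or -1.40 and for Tnfaip6 -1.53 or -1.18, against make-up of -0.09 or -0.90 and of -0.57 or -0.93. For Ptx3 levels gave -2.58 in one order, and in the other the parts were nearly equal, -1.39 for levels and -1.44 for make-up. In 8 of 8 clusterings make-up was the larger part for Vcan and Cd44 in both orders, and levels were the larger part for Has2. For Has1, Tnfaip6 and Ptx3 levels were the larger part in both orders in 6, 5 and 3 of the 8, and make-up in none.

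**Figure D3:**
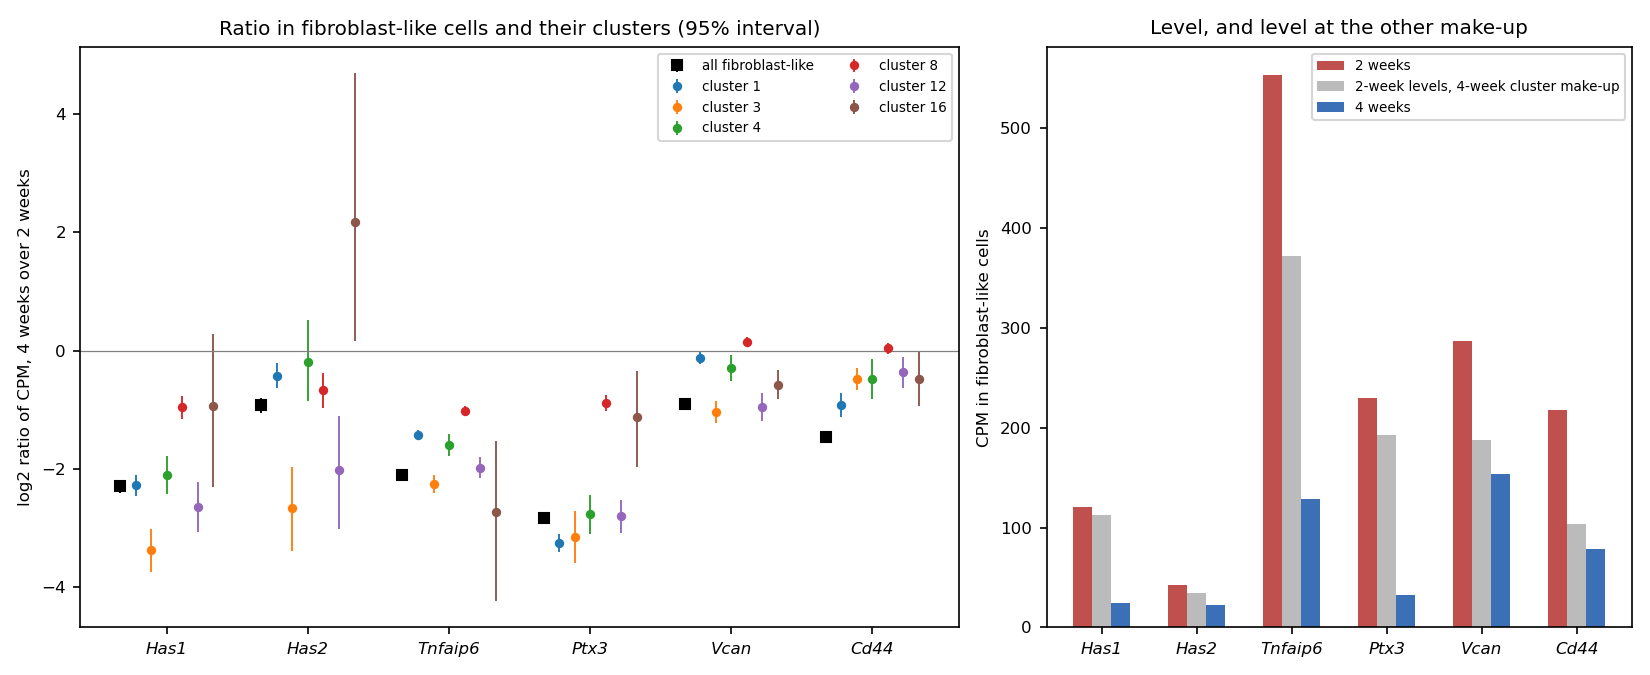
Left, log2 ratio of the 4-week to the 2-week CPM (y axis) of each gene in all fibroblast-like cells (black squares) and in their 6 clusters (coloured points), with 95% intervals. Right, CPM in fibroblast-like cells at 2 weeks (red), at 4 weeks (blue), and at 2-week cluster levels with 4-week cluster shares (grey): the grey bar of Cd44 stands at 103 CPM and close to the blue, and that of Has1 close to the red.

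Cells with several of the genes were commoner at 2 weeks. After thinning, 29.3% of fibroblast-like cells had no UMI of any of the 5 matrix genes at 2 weeks, and 56.3% at 4 weeks. UMIs of 3 of the 5 were found in 12.5% and 2.09%, and of all 5 in 6 of 1159 cells and 0 of 3068. Each of the 5 was by itself found in fewer cells at 4 weeks, as given above. The joint shares that would follow from this alone were not worked out. At 2 weeks Ptx3 was found in 32.5% (28.6 to 36.6) of cells with a Tnfaip6 UMI and in 9.002% (6.85 to 11.6) of cells without one. At 4 weeks these shares were 8.49% (6.43 to 10.96) and 3.03% (2.38 to 3.79). Within cluster 8 alone at 2 weeks they were 30.7% (25.4 to 36.3) and 10.9% (6.35 to 17.1). Tnfaip6 was found in 67.6% (61.4 to 73.3) of 2-week cells with a Has1 UMI and in 41.6% (38.4 to 44.9) of the others. These shares pool clusters whose 2-week levels ran from 30.1 to 783 CPM for Tnfaip6 and from 11.6 to 151 CPM for Has1. Shares within single clusters are not given for this pair. The pair of synthases was compared over all fibroblast-like cells and within single clusters. At 2 weeks Has2 was found in 11.1% (7.48 to 15.6) of cells with Has1 and in 8.72% (6.96 to 10.7) of cells without, and in cluster 8 in 13.8% (8.26 to 21.2) and 14.3% (10.6 to 18.7), with overlapping intervals. At 4 weeks Has2 was found in 12.6% (7.75 to 19.0) of cells with Has1 and in 5.21% (4.43 to 6.08) of cells without, and in cluster 1 in 22.0% (13.6 to 32.5) and 10.5% (8.61 to 12.7), with intervals that did not overlap.

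Cd44 was highest in neutrophil-like cells, at 1321 CPM (1235 to 1412) in 206 cells at 2 weeks and 800 CPM (666 to 952) in 29 cells at 4 weeks. Conventional dendritic cell-like cells had 505 CPM (473 to 538) and 374 CPM (344 to 405), and monocyte or macrophage-like cells 466 CPM (455 to 476) and 359 CPM (337 to 381). These neighbours in the order had overlapping intervals at both times. When the libraries were clustered apart, the log2 ratio of the times in conventional dendritic cell-like cells went from -0.43 (-0.59 to -0.28) to -0.09 (-0.29 to 0.11), an interval that holds 0. Interleukin-17 type lymphocyte-like cells had 394 CPM (342 to 452) and 315 CPM (274 to 361). NK cell-like cells had 186 CPM (163 to 212) and 114 CPM (101 to 129). Fibroblast-like cells as a whole, at 217 and 78.6 CPM, thus lay below the myeloid classes at both times. Their interval overlapped that of NK cell-like cells at 2 weeks and lay below it at 4 weeks. Their cluster 8 alone stood higher, at 348 and 359 CPM. Its interval lay below that of monocyte or macrophage-like cells at 2 weeks and overlapped it at 4 weeks. Thymocyte-like cells were at 10.1 CPM (8.64 to 11.6) and 10.7 CPM (8.20 to 13.8), and neutrophil-like cells were 131-fold (112 to 155) above them at 2 weeks.

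Within the macrophages Cd44 was higher in the Arg1 and Trem2 cluster than in the Folr2 and Cd163 cluster. Cluster 7 had 630 CPM (612 to 647) and 441 CPM (411 to 473), and cluster 5 had 295 CPM (283 to 308) and 218 CPM (191 to 248). The level in cluster 7 was 2.13-fold (2.03 to 2.24) that in cluster 5 at 2 weeks and 2.02-fold (1.74 to 2.35) at 4 weeks. Over the class the log2 ratio of the times was -0.38 (-0.47 to -0.28), where 13.3% of 11358 genes were lower at 4 weeks with an interval excluding 0. After thinning, a Cd44 UMI was found in 58.1% of monocyte or macrophage-like cells at 2 weeks and 45.3% at 4 weeks, and without thinning in 89.3% and 80.0%.

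Mature dendritic cell-like cells, which carry Ccr7 and Fscn1, went the other way. They had 341 CPM of Cd44 (279 to 412) in 24 cells at 2 weeks and 537 CPM (482 to 596) in 62 cells at 4 weeks, a log2 ratio of 0.66 (0.34 to 0.98). The share of all genes that were higher in this class was not worked out. Among T cell-like cells Cd44, a marker of lymphocytes that have met antigen, differed between clusters 17 and 6. At 4 weeks cluster 17, led by Izumo1r, Pdcd1 and Foxp3, had 140 CPM (120 to 163) in 200 cells, and cluster 6 had 17.1 CPM (13.5 to 21.4) in 610 cells, an 8.23-fold difference (6.25 to 10.9). At 2 weeks the difference was 22.2-fold (6.37 to 119), with only 12 cells in cluster 17. The remaining T cell-like cluster, 21, with 104 and 53 cells, was not compared. B lineage-like cells had 35.4 CPM (31.9 to 39.1) at 4 weeks. Over all kept cells Cd44 was at 222 CPM at 2 weeks and 90.2 CPM at 4 weeks, while the shares of monocyte or macrophage-like and thymocyte-like cells were lower at 4 weeks and those of fibroblast-like and B lineage-like cells higher, as given above.

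Around the 6 genes, the enzymes that make the sugar precursors differed less between the times in fibroblast-like cells. Of 7 measured, 4 were lower at 4 weeks, 2 higher and 1 neither, with a median log2 ratio of -0.13. Ugdh, which makes UDP-glucuronic acid, was at 502 and 332 CPM (-0.60, -0.63 to -0.56), and Uap1, which makes UDP-N-acetylglucosamine, at 272 and 327 CPM (0.27, 0.23 to 0.31). Of 4 measured genes of the inter-alpha-inhibitor heavy chain family (Itih2, Itih3, Itih4 and Itih5), 3 were lower and 1 neither. Itih5 was at 364 and 304 CPM (-0.26, -0.30 to -0.22) and Itih4 had 50 and 35 UMIs (-1.11, -1.78 to -0.46). The light chain gene Ambp, a gene of the liver, had no UMI in fibroblast-like cells. In monocyte or macrophage-like cells it had at least 20 UMIs over both times.

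All 5 measured proteases that cut versican were lower at 4 weeks over all fibroblast-like cells, with a median log2 ratio of -1.31. Within single clusters the median of this list was nearer to 0, from -1.001 in cluster 12 to -0.33 in cluster 16. In cluster 16, 2 of the 5 were lower, and in cluster 8 the median was -0.46. The ratios that follow and those of the other lists are over all fibroblast-like cells. Their parts from cluster make-up and from levels were not worked out. Adamts4 was at 22.1 and 2.13 CPM (-3.38, -3.72 to -3.05), Adamts15 at 87.5 and 35.2 CPM (-1.31, -1.41 to -1.22), Adamts9 at 4.99 and 2.01 CPM (-1.31, -1.73 to -0.90), and Adamts5, which had the highest counts, at 481 and 400 CPM (-0.27, -0.30 to -0.23). Of 7 measured genes that break hyaluronan down, 2 were lower, 2 higher and 3 neither, with a median log2 ratio of -0.07. Cemip, which depolymerises hyaluronan outside the cell, had 78 UMIs at 2 weeks and 2 at 4 weeks (-5.88, -8.95 to -3.98), and Tmem2, a surface hyaluronidase, was at 11.3 and 5.95 CPM (-0.93, -1.18 to -0.68). The lysosomal hyaluronidase gene Hyal1 was higher, with a log2 ratio of 0.49 (0.24 to 0.75). Of 6 measured hyaluronan-binding matrix genes, members included, 5 were lower and 1 neither.

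Of 7 measured receptors 3 were lower, 2 higher and 2 neither. Layn, an integral membrane receptor, and Tlr4 were higher by 0.28 (0.12 to 0.45) and 0.24 (0.07 to 0.42). Hmmr, also a mitosis gene, had 30 and 22 UMIs (-1.05, -1.91 to -0.20). Stab1, a scavenger receptor of macrophages, was at 4.503 and 1.141 CPM (-1.98, -2.50 to -1.48), against 298 and 274 CPM in monocyte or macrophage-like cells; the part of RNA from those cells was not tested. Among 7 cytoskeletal partners and other ligands of CD44, 5 were lower, 1 higher and 1 neither; Mmp9, mainly a neutrophil gene, had 99 and 50 UMIs (-1.58, -2.10 to -1.08).

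**Figure D4:**
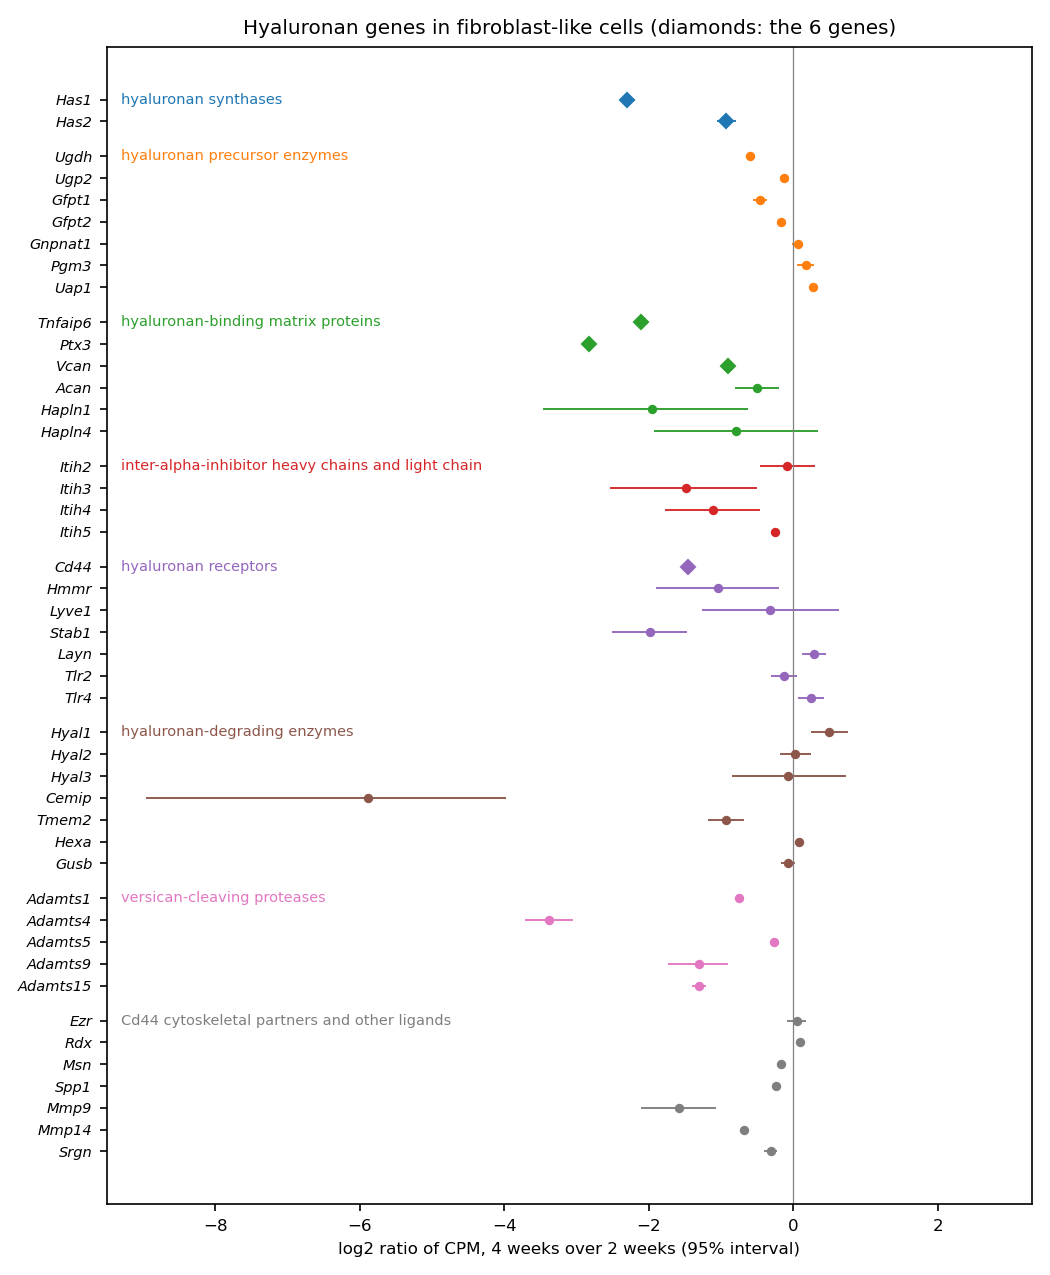
Log2 ratio of the 4-week to the 2-week CPM (x axis) in fibroblast-like cells of each hyaluronan gene with at least 20 UMIs, grouped and coloured by role, with 95% intervals and diamonds for the 6 members. Precursor enzymes lie near 0, and the members, Cemip and Adamts4 lie to the left.

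Other measures moved with these differences in fibroblast-like cells. Of 12 immediate early genes, which respond within minutes to stimulation and to tissue handling, 11 were lower at 4 weeks and 1 neither, and their summed level was 14015 and 10067 CPM. Atf3 was at 806 and 124 CPM (-2.70, -2.74 to -2.65), Zfp36 at 511 and 226 CPM (-1.18, -1.21 to -1.14) and Nr4a1 at 92.2 and 45.3 CPM (-1.03, -1.11 to -0.94). This was not particular to fibroblast-like cells. In monocyte or macrophage-like and in conventional dendritic cell-like cells 11 of the 12 were lower and 1 higher. In smooth muscle or mural cell-like cells 11 were lower, and in T cell-like cells 9 of 11 measured. The list's median log2 ratio was -0.75 in monocyte or macrophage-like cells, against 0.02 for all genes, of which 13.3% were lower. It was -0.88 in conventional dendritic cell-like cells (all genes -0.03) and -0.59 in mural cells (0.04). In T cell-like cells it was -0.47, and all genes had a median of -0.27. Thymocyte-like cells differed, with 4 lower and 7 higher, and medians of 0.23 and 0.02. Shares of all genes that were lower are not given for these classes other than the macrophages. Summed markers of other cell types moved in both directions. Those of smooth muscle cells were 370 and 127 CPM in fibroblast-like cells (8 of 8 detected at both times). They stood highest in cluster 16, at 2051 and 2260 CPM, and next in cluster 8, at 345 and 138 CPM. Over all fibroblast-like cells those of erythroid cells were 24.5 and 425 CPM (4 of 5, with Alas2 at 0, and 5 of 5). Those of B cells were 1.24 and 31.9 CPM (5 of 6, with Fcmr at 0, and 6 of 6). Summed markers of macrophages were 158 and 104 CPM (8 of 8 detected at both times), of neutrophils 37.9 and 22.4 CPM (7 of 7), and of parathyroid cells 122 and 26.6 CPM (5 of 5 and 4 of 5, Casr at 0 at 4 weeks). The part of these measures and of depth in the ratios of the 6 genes was not tested.

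Over the 52 cluster-by-time groups with at least 20 cells, the gene most like Has1 in log2(CPM + 10) was Tnfaip6 (Pearson r = 0.942), and those most like Ptx3 were Has1 (0.925) and Tnfaip6 (0.917), out of 10952 genes. The nearest to Has2 were Igdcc4 (0.940) and the precursor enzyme Ugdh (0.934). For Tnfaip6 the nearest after Has1 was Ebf2 (0.934). Vcan was nearest to Phldb1 (0.898) and Rusc2 (0.895). Cd44 was nearest to Sgpl1 (0.7995) and Lgals3 (0.798), and its r with Has1 was 0.08. Over the 12 fibroblast-like groups alone, the nearest gene was Klf6 for Has1 (0.963), Bcl3 for Ptx3 (0.965), Rdh10 for Tnfaip6 (0.955), Galnt1 for Has2 (0.968), Itga5 for Vcan (0.960) and Vmp1 for Cd44 (0.977). In those 12 groups the r of Cd44 with Has1 was 0.52, and with the other members it lay between 0.41 (Has2) and 0.63 (Vcan). These values describe groups that share 2 libraries and their depth.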

How the data were processed

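The authors deposited raw UMI counts for every gene in every barcode; the file headers name Cell Ranger 4.0.0, and the submitters' processing notes name the build mm10; the annotation and strand setting are not given in the sources used here. Of 27998 gene identifiers 27645 were in GENCODE M21. RefSeq's promoter table held 5 of the 6 genes.

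Cells with at least 500 UMIs, 300 genes and at most 10% mitochondrial UMIs were kept (54 and 73 shallow and 383 and 483 mitochondrial barcodes removed). The highest Scrublet scores were removed at 0.8% per 1000 barcodes (275 and 587 cells, 4.69% and 6.85% of barcodes). Both libraries were clustered together in scanpy 1.11.5 without batch correction and without the 6 genes (Python 3.11.15, leidenalg 0.10.2): 2000 variable genes, 30 principal components, 15 neighbours, resolution 1, seed 1. Clusters were named from 30 marker lists. A name needed at least 3 markers and 50% of a list, each in 10% of the cluster's cells and at 2 times its mean level elsewhere, with a lead of 20 points over other lineages; the lineages whose lists do not compete were set after the clusters were seen.

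UMIs were summed by class and library and given as CPM with exact Poisson intervals, ratios with exact conditional binomial intervals and shares with Clopper-Pearson intervals. The interval method was run on counts simulated with Poisson scatter, which the intervals themselves assume. That run cannot show how the intervals hold where UMIs gather in few cells. For a count of 0 the upper limit was set at 3 counts. A gene was called lower or higher where its interval excluded 0 and it had at least 20 UMIs in the class. All 6 members are described. Pathway genes with at least 50 UMIs and a 2-fold or larger difference are named, up to 4 per list; Ugdh, Uap1, Itih5, Ambp, Adamts5, Tmem2, Hyal1, Layn and Tlr4, and the contrasts between single clusters, were chosen after their values were seen. Similar genes are the nearest of 3 by Pearson r among genes with at least 500 UMIs. One gene of the degradation list and 1 erythroid marker are not reported here. The members, lists and settings were chosen with earlier results of these data known, and the list of immediate early genes was added later.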

Additional observations from a re-analysis of the deposited data

Results flagged for a closer look

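In 2 cases a gene differed between the times in opposite directions in 2 cell classes. Vcan had a log2 ratio of 4 weeks to 2 weeks of 0.80 in smooth muscle or mural cell-like cells and -0.90 in fibroblast-like cells. Without doublet removal the value in mural cells was 0.55 (0.36 to 0.73), below the main interval of 0.59 to 1.00. Cd44 had 0.66 in mature dendritic cell-like cells and -0.38 in monocyte or macrophage-like cells. With 1 library at each time neither difference between classes was tested. The mature dendritic cell-like class had 24 cells at 2 weeks, under the limit of 50, so its value was not recomputed under the alternatives.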

How the results depend on the processing

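No paired analysis was possible because each time is 1 library. The number of the 5 matrix genes at least 2-fold lower in fibroblast-like cells was 3 in the main analysis and 3 or 4 under the 12 alternatives. Their median log2 ratio, -2.11, was -2.19 at Leiden resolution 2, -2.18 at 5% mitochondrial UMIs and at 2000 UMIs with 1000 genes per cell, -2.04 as a mean over cells, -1.45 with clusters weighted equally, and -1.58 without cluster 8, an alternative chosen after seeing the data. Equal weighting by construction sets aside differences in cluster numbers. The median share of their UMIs in fibroblast-like cells, 97.9% and 98.8%, was 96.9% and 97.9% with the 6 genes kept in the clustering, 97.3% at resolution 0.5 (2 weeks), and 97.0% and 98.1% at resolution 2. It was 97.7% with libraries clustered apart (4 weeks), 94.9% and 92.5% without doublet removal, 97.4% and 97.3% at 5% and 97.5% and 98.1% at 20% mitochondrial UMIs, and 97.6% and 97.8% at the stricter depth. The thinned Cd44 share in monocyte or macrophage-like cells was 76.7% and 63.0% at 5000 UMIs. Over 24 pairs of gene and class, 219 of 264 values kept within the counting interval of the main value. Sign changed in 11, of which 7 had a main interval that held 0, among them Cd44 in T cell-like cells, 0.18, which came to -1.49 without doublet removal and -1.66 at 20% mitochondrial UMIs. The other 4 follow. Cd44 in NK cell-like cells, -0.70, came to 0.078 at resolution 2, 0.057 at 5% mitochondrial UMIs and 0.15 at the stricter depth, and Tnfaip6 in thymocyte-like cells, -1.80, to 0.36 without doublet removal; the cause was not tested. Depth limits Has3, Cemip at 4 weeks and every class under 50 cells.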
